A study of Mus musculus with 175 samples.

Results

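The ETS transcription factors described here are the 9 genes Fli1, Spi1, Erg, Etv6, Ets1, Ets2, Elf1, Elk3 and Gabpa, taken by their symbols from the gene annotation that accompanies the counts, out of 49585 mouse features. Each symbol matched 1 feature. They were read in single haematopoietic progenitors sorted from fetal liver at 14.5 days post fertilization. All embryos carried the Runx1 P1-GFP::P2-hCD4 reporter allele over a wild-type allele on a C57BL/6 and ICR background (1 label field writes the allele as P2-GFP::P2-hCD4/+), and human CD4 on the cell surface reports transcription from the proximal promoter P2 of Runx1. Every cell was lineage-negative, Sca1-, cKit+, CD41- and CD150+, and low for the Fc-gamma receptors. MEPs (megakaryocyte-erythroid progenitors) were CD34- and CMPs (common myeloid progenitors) CD34+, and each was split into P2- and P2+ cells by the reporter. The livers of 2 litters were pooled before sorting, so each population is 1 sample without replicate, no treatment was given, and every cell also carries the reporter allele, including the P2- cells.

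After the cell filters 172 of 175 cells remained, and the MEPs among them were 56 P2- and 47 P2+ cells, the CMPs 27 P2- and 42 P2+ cells. Where 4 values follow each other below, they stand in that order of populations. For CMPs the labels give low and high in place of P2- and P2+. For 1 P2- CMP the subtype label names MEP, and it was kept as a CMP. Total reads per cell were 571806 to 2827426, and reads on mouse genes 295064 to 1540631. No pair of cells had identical counts. The erythroid markers (10 genes, Klf1 and Gata1 among them) summed to medians of 1765, 883, 491 and 181 reads per 1000000 reads on mouse genes (CPM) per cell, and the stem and multipotent markers (7 genes, Cd34 among them) to 57.1, 131, 496 and 877 CPM. Of the erythroid markers, Hbb-bt went against that order with 9.51, 9.79, 232.2 and 121 CPM, and Car1 was at 111, 299.7, 55.6 and 0 CPM. The megakaryocytic markers (8 genes, of which 5, 8, 7 and 7 had a read) summed to medians of 11.99, 275.7, 429 and 599 CPM and the granulocyte and monocyte markers (9 genes, of which 4, 6, 7 and 7 had a read) to 0, 11.9, 303.4 and 391 CPM. Their part in the ETS levels was not tested. Of the lymphoid markers only Cd79b was read in more than 1 cell, and the macrophage markers Adgre1, C1qa and C1qb had no read in any population. Over the summed reads of each population the 9 lymphoid markers came to 0, 21.8, 79.6 and 84.4 CPM. The 6 mast and basophil markers, of which 1, 1, 2 and 1 had a read, came to 0.33, 2.69, 72.8 and 34.2 CPM. Their part in the ETS levels was not tested either.

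ETS factors share a winged helix-turn-helix DNA-binding domain that contacts a GGAA core, and differ in the bases around it, in their partners and in the cells that make them. In blood, FLI1 and ERG are close relatives that act in stem cells and in the megakaryocyte lineage, PU.1 (encoded by Spi1) drives myeloid and B-cell development and antagonises GATA1 in erythroid cells, and ETV6 is a repressor needed by adult blood stem cells. ETS1 and ETS2 are signal-responsive activators, ELK3 is a partner of serum response factor that can repress, and ELF1 and GABPA are widely made activators, GABPA binding DNA together with a GABPB subunit.

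The 9 genes lie on 6 chromosomes of GRCm38 (gene models of GENCODE vM21, a later release than the M12 on which reads were counted). Fli1 (chromosome 9, 32422204 to 32542861, minus strand) and Ets1 (chromosome 9, 32636221 to 32757820, plus strand) lie head to head 93.4 kb apart, and so do Erg (chromosome 16, 95359169 to 95586593, minus strand) and Ets2 (chromosome 16, 95702075 to 95721051, plus strand), 115 kb apart. Neither gap holds a protein-coding gene. Gabpa lies on the same chromosome as the second pair (chromosome 16, 84834925 to 84863779, plus strand). Spi1 is on chromosome 2 (91082390 to 91115756, plus), Etv6 on chromosome 6 (134035700 to 134270158, plus), Elk3 on chromosome 10 (93247414 to 93311135, minus) and Elf1 on chromosome 14 (79481194 to 79582494, plus). Reads were counted over the exons of each gene without regard to strand. Exon bases that overlap another gene, where reads cannot be assigned, made up 6.98% for Gabpa (with Atp5j), 6.95% for Elk3 (Cdk17), 4.85% for Elf1 (Wbp4) and 2.26% for Etv6 (Gm17089). Fli1, Spi1, Erg, Ets1 and Ets2 had none, and no stretch of 70 bases in common with a transcript of another gene. Of the stretches of 70 bases in Elf1, 4.42% also occur in a transcript of Wbp4, Gm6649, Slc25a42 or Slc30a7, so reads from there are uncertain.

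Promoters of 6 of the 9 genes are in the RefSeq-derived table (GRCm38.p6, 250 bases before to 50 after the start), and 4 are shown because these genes differ in how their level changed between the populations. Fli1, Spi1 and Ets1 are not among the entries. The capitals mark the ETS core GGAA on either strand (TTCC on the strand shown).
Gabpa, chr16:84834874-84835173, plus strand: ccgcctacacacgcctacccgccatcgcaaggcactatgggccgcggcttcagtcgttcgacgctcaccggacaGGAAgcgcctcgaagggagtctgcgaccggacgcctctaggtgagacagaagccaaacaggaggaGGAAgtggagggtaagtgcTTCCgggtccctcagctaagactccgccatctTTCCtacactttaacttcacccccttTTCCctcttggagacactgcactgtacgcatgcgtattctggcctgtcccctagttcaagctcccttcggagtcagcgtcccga
Erg, first of 3 promoters, chr16:95586544-95586843, minus strand: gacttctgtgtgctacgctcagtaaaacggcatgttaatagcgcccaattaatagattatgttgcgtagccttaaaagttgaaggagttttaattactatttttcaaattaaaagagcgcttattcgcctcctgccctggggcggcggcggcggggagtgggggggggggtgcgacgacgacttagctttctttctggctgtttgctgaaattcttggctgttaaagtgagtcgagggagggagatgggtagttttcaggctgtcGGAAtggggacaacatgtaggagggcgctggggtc
Etv6, chr6:134035450-134035749, plus strand: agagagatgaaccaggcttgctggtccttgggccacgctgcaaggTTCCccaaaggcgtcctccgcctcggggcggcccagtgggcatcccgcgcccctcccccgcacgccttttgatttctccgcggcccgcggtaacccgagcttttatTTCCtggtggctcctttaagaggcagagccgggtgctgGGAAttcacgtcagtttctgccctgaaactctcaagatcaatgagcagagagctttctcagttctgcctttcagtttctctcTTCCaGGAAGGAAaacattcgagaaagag
Elk3, chr10:93311110-93311409, minus strand: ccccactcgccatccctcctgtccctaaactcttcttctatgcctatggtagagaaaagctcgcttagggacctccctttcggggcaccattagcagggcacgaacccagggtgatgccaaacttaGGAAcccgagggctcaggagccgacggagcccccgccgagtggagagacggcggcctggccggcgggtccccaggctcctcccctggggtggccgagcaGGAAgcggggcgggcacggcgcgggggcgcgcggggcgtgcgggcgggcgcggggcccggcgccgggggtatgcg
The core occurs 5 times in the Gabpa promoter, 1 time in the Erg promoter shown, 6 times in that of Etv6 and 2 times in that of Elk3. It is not particular to them, since 96.0% of all 32851 promoters of this length in the table hold at least 1, with a median of 3. The longer motif CCGGAAG, searched on both strands and containing the core, was found 1 time in the Gabpa promoter, in none of the others shown, and in 8.86% of all promoters.

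The first comparison is of P2+ with P2- MEPs. The level of a population is the sum of its reads of a gene per 1000000 reads summed over mouse genes (pooled CPM), and a difference is the log2 ratio of 2 such levels. Pooled CPM were at least 2-fold higher in P2+ than in P2- MEPs for 6 of the 9 genes (Fli1, Spi1, Erg, Ets1, Elf1 and Elk3) and at least 2-fold lower for 0, while Etv6, Ets2 and Gabpa stayed within the limit, where 15% of the 11860 tested genes (mean count of 1 or more per cell) were higher and 6.46% lower by this limit. The median log2 ratio was 1.84 over the 9 genes and 0.05 over all tested genes. In CMPs only Ets1 was past the limit, in the higher direction, and 0 genes were lower, against 9.79% and 9.33% of all tested genes, and the median log2 ratio was 0.14, against -0.02 over all tested genes. Ets1 passed the filter on low counts (mean 1.28 reads per cell) only through the P2+ CMPs, which hold 168 of its reads, so its place in these counts is a description and supports nothing. With 1 sample per population no difference could be tested, and the 95% intervals below cover counting error only, PCR copies and the choice of embryos not included.

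**Figure D1:**
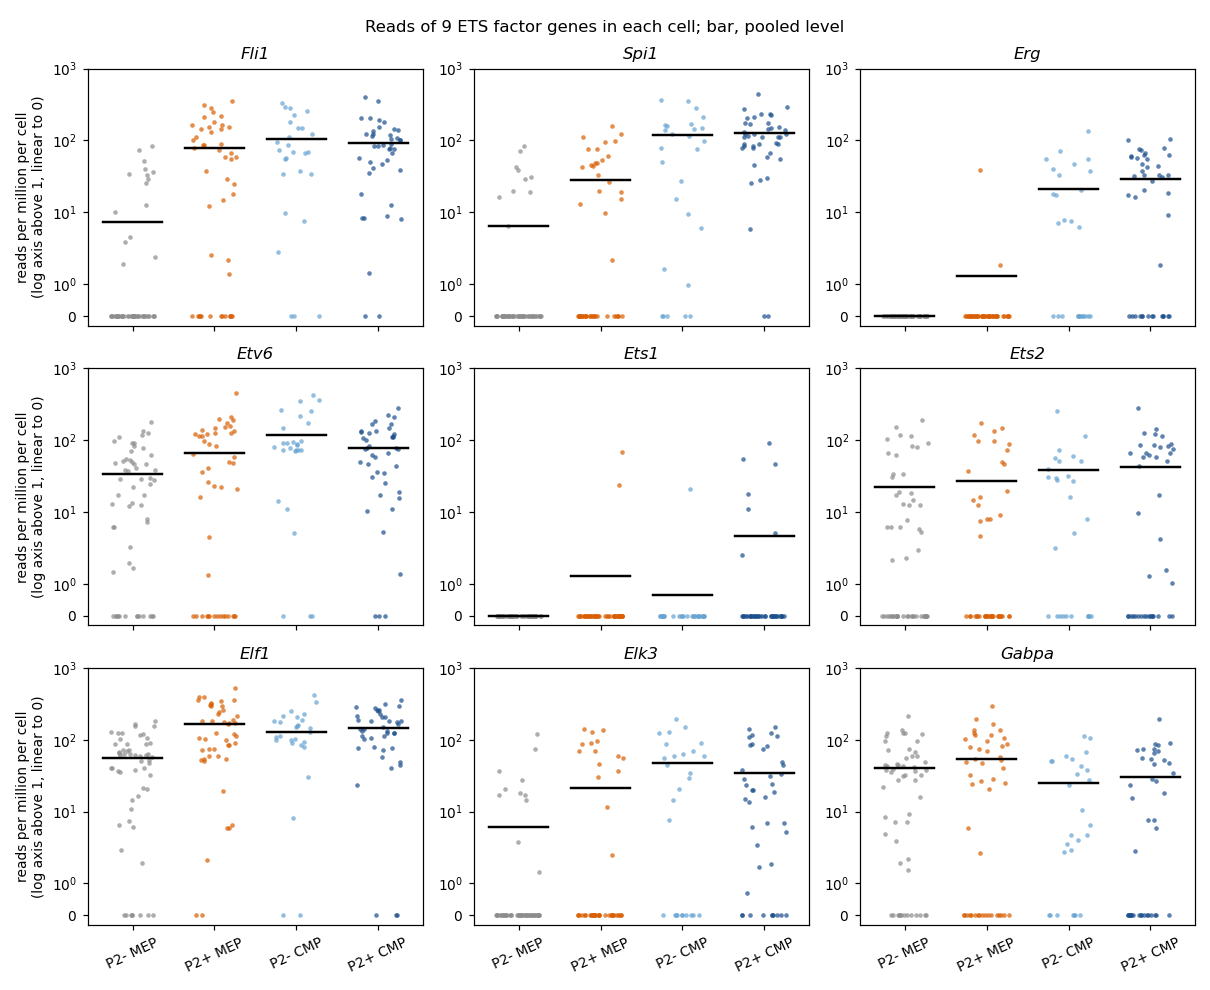
Reads per 1000000 (CPM) of each of the 9 genes (panels) in each cell (points) of the 4 populations, with the pooled level as a bar, on an axis that is logarithmic above 1 and linear below. Fli1 had no read in most P2- MEPs and reached 358.01 CPM in a P2+ MEP, Erg had no read in any P2- MEP, and Elf1 had reads in most cells of every population.

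Among MEPs, Fli1 was read at equal depth (each cell thinned to 100000 reads on mouse genes) in 12 of 56 P2- and 32 of 47 P2+ cells, and among CMPs in 23 of 27 P2- and 39 of 42 P2+ cells. Per cell the lowest Fli1 value was 0 CPM in every population, the medians were 0, 58.9, 69.8 and 83.7 CPM, and the highest values 83.5, 358.01, 333.10 and 403 CPM. The ranges overlapped, since each population had cells without a read, but 19 of the 47 P2+ MEPs were above every P2- MEP. The pooled level of Fli1 was 7.29 CPM (6.36 to 8.31), 79.3 (76.2 to 82.5), 106 (101 to 111) and 90.7 (87.6 to 93.8) CPM. P2+ over P2- this gives a log2 ratio of 3.44 (3.25 to 3.65) in MEPs and -0.22 (-0.31 to -0.14) in CMPs, where it was -0.03 with size factors (DESeq2 poscounts) in place of total reads. CMP over MEP it gives 3.86 in P2- cells and 0.19 (0.12 to 0.27) in P2+ cells. The pooled Fli1 level of P2+ MEPs was 1.14-fold below that of P2+ CMPs. Both the share of cells with a read and the mean of the cells with reads (29.4 CPM in P2- and 114 CPM in P2+ cells) were higher in the P2+ MEPs.

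Erg, the relative of Fli1, had 0 reads in the 56 P2- MEPs, which allows a share of cells with a read of up to 6.38% (exact binomial interval), and the floor of 3 reads used for ratios is 0.0980 CPM there. It had 41 reads in the P2+ MEPs, 40 of them in 1 cell. Among CMPs it was read at equal depth in 12 of 27 P2- and 25 of 42 P2+ cells. Per cell Erg was between 0 and 136 CPM (median 7.05) in the P2- CMPs and between 0 and 106 CPM (median 29.3) in the P2+ CMPs, ranges that overlap. The log2 ratio of pooled CPM, P2+ over P2-, was 0.44 (0.27 to 0.61) in CMPs (21.3 and 28.9 CPM). In MEPs it was at least 3.73, a bound against the 3-read floor, and without the 1 cell only 1 read of Erg was left in P2+ MEPs, so that no ratio could be given. Erg was at least 7.76 (log2) higher in P2- CMPs than in P2- MEPs, and 4.47 (4.02 to 4.96) higher in P2+ CMPs than in P2+ MEPs, where leaving out the top cell of each population gave 9.69. Of the P2+ MEPs 32 had a read of Fli1 at equal depth and 2 had a read of Erg.

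Spi1, which encodes PU.1, was read at equal depth in 8 of 56 P2- and 20 of 47 P2+ MEPs, and in 19 of 27 P2- and 39 of 42 P2+ CMPs. Per cell the lowest Spi1 value was 0 CPM in every population, the medians were 0, 0, 79.3 and 113 CPM and the highest values 83.9, 161, 361.95 and 440 CPM. Pooled, Spi1 was at 6.53 CPM (5.66 to 7.51), 27.97 (26.2 to 29.9), 118 (113 to 123) and 128 (124 to 132) CPM, and the intervals of neighbours in this order did not overlap. Spi1 in P2+ MEPs, like Fli1, stood between P2- MEPs and the CMPs, with a log2 ratio of 2.10 (1.87 to 2.33) over P2- MEPs and with P2+ CMPs 2.20 (2.09 to 2.30) above them. Within CMPs the P2+ level of Spi1 was 0.12 (0.04 to 0.19) above the P2- level on the log2 scale, and 0.34 above it with size factors. Of the 47 P2+ MEPs 5 had a Spi1 value above every P2- MEP, and 11 P2+ CMPs lay above every P2+ MEP.

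**Figure D2:**
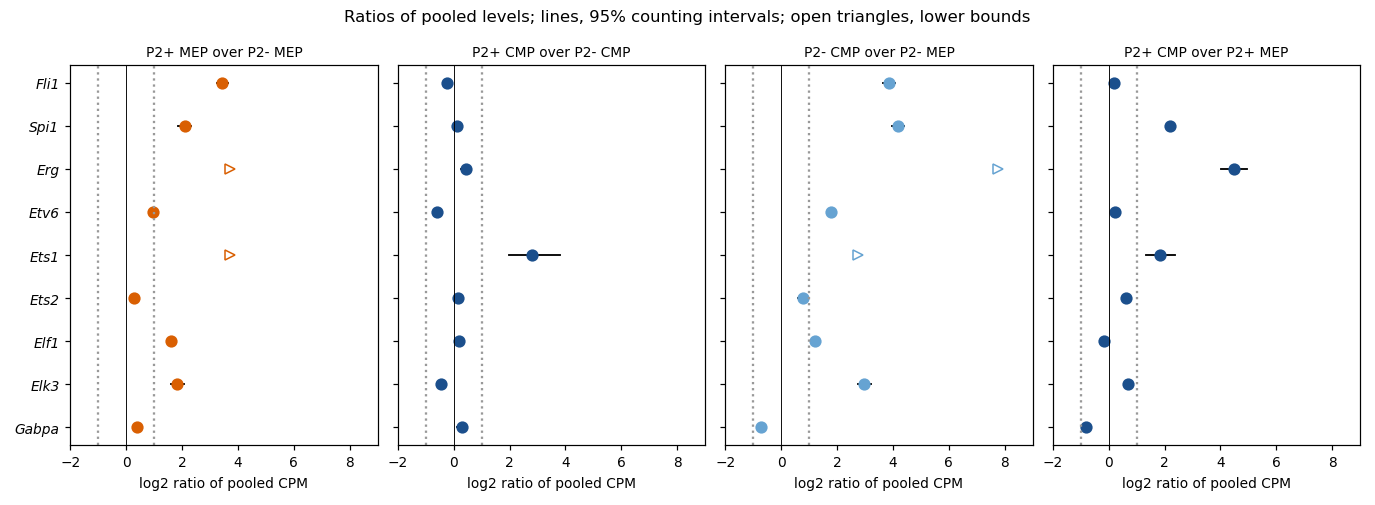
Log2 ratio of the pooled CPM (x axis) of each of the 9 genes (y axis) in the 4 comparisons (panels), with 95% counting intervals as lines, lower bounds as open triangles, and the 2-fold limits dotted. In MEPs 6 genes lie beyond the 2-fold limit on the higher side, in CMPs only Ets1 does, and Gabpa is the gene with values below 0 in both comparisons of CMPs with MEPs.

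Ets1 was the least read of the 9 genes. It had 0 reads in P2- MEPs, 41 reads in 2 P2+ MEPs, 12 reads in 1 P2- CMP and 168 reads in 7 P2+ CMPs, of which 1 cell held 66. The log2 ratio was at least 3.73 in MEPs (41 reads against the floor) and 2.82 (1.98 to 3.80) in CMPs. Leaving out for Ets1 the highest cell of each population left 14 reads in P2+ MEPs and 102 in P2+ CMPs, against 0 in both P2- populations, and lowered the bound in MEPs to 2.18. Ets2 was read at equal depth in 22 of 56 P2- and 15 of 47 P2+ MEPs, and in 16 of 27 P2- and 23 of 42 P2+ CMPs. Per cell the lowest Ets2 value was 0 CPM throughout, the medians were 2.23, 0, 16.02 and 6.89 CPM and the highest values 193, 174, 256.17 and 280.84 CPM. Its pooled CPM were 22.2 (20.6 to 23.95), 27.05 (25.3 to 28.9), 37.9 (35.1 to 40.8) and 41.7 (39.6 to 43.9), where the intervals of the P2- and P2+ CMPs overlapped. The log2 ratio of Ets2, P2+ over P2-, was 0.28 (0.14 to 0.43) in MEPs and 0.14 (0.01 to 0.27) in CMPs, and 0.08 and 0.38 with equal weight for every cell. Of the genes that face each other on the chromosome, Fli1 and Ets2 were read in every population, and Ets1 and Erg in no P2- MEP.

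The repressor genes Etv6 and Elk3 had a higher pooled level in P2+ than in P2- MEPs and a lower one in P2+ than in P2- CMPs. Per cell the lowest Etv6 value was 0 CPM in every population, the medians were 23.4, 40.3, 86.3 and 74.7 CPM and the highest values 181, 448, 430 and 280.92 CPM. Its log2 ratio of pooled CPM was 0.96 (0.85 to 1.06) in MEPs (34.1 and 66.2 CPM), just under the 2-fold limit, and -0.61 (-0.69 to -0.52) in CMPs (119 and 78.1 CPM). Etv6 was read at equal depth in 37 of 56 P2- and 30 of 47 P2+ MEPs, while the mean of the cells with reads was 47.03 CPM in the P2- and 104 CPM in the P2+ MEPs. Elk3 was read at equal depth in 8 of 56 P2- and 12 of 47 P2+ MEPs, and in 17 of 27 P2- and 27 of 42 P2+ CMPs, with lowest values of 0 and highest values of 122, 143, 192 and 151 CPM and medians of 0, 0, 29.3 and 17.5. Its log2 ratio was 1.84 (1.599 to 2.08) in MEPs (6.04 and 21.6 CPM) and -0.44 (-0.57 to -0.32) in CMPs (47.2 and 34.7 CPM). For Elk3 in CMPs the share of cells with a read was 62.96% (42.4 to 80.6) in P2- and 64.3% (48.03 to 78.4) in P2+ cells, and the mean of the cells with reads 72.3 and 46.5 CPM.

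Elf1 was read in most cells of every population, at equal depth in 44 of 56 P2- and 44 of 47 P2+ MEPs, and in 25 of 27 P2- and 39 of 42 P2+ CMPs. Per cell the lowest Elf1 value was 0 CPM in every population, the medians were 54.6, 118, 126 and 137 CPM and the highest values 185, 531, 412 and 357.44 CPM. The ranges overlapped, with the P2- MEPs lowest, and 16 of the 47 P2+ MEPs were above every P2- MEP. The pooled level was 54.9 CPM (52.3 to 57.6), 166 (162 to 171), 128 (123 to 133) and 146 (142 to 150), and the log2 ratio P2+ over P2- 1.599 (1.52 to 1.68) in MEPs and 0.19 (0.12 to 0.26) in CMPs. Among MEPs the cells with reads of Elf1 had a mean of 66.4 CPM when P2- and of 169 CPM when P2+.

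Gabpa, the DNA-binding subunit of GABP, had a lower pooled level in CMPs than in MEPs. It was read at equal depth in 37 of 56 P2- and 29 of 47 P2+ MEPs, and in 13 of 27 P2- and 23 of 42 P2+ CMPs. Per cell the lowest Gabpa value was 0 CPM in every population, the medians were 32.7, 28.1, 6.59 and 7.67 CPM and the highest values 211.50, 291.04, 111 and 196 CPM. Its pooled level was 40.7 CPM (38.4 to 43.002), 53.2 (50.7 to 55.8), 24.7 (22.5 to 27.1) and 30.1 (28.3 to 31.9). The log2 ratio of Gabpa, CMP over MEP, was -0.72 (-0.88 to -0.56) in P2- cells and -0.82 (-0.93 to -0.71) in P2+ cells, and P2+ over P2- it was 0.39 (0.28 to 0.49) in MEPs and 0.28 (0.12 to 0.44) in CMPs. None of these was past the 2-fold limit.

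**Figure D3:**
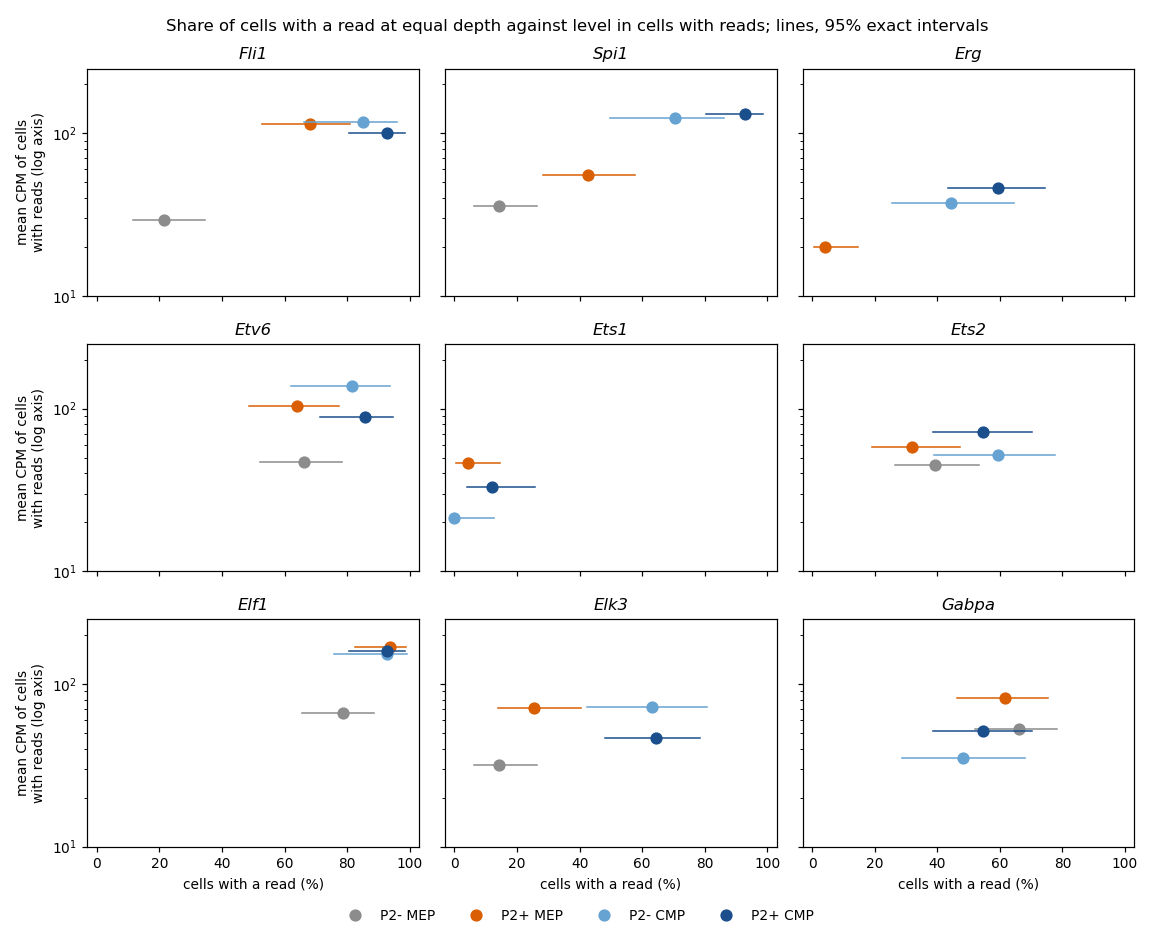
Percent of cells with a read after thinning to 100000 reads (x axis, lines for 95% exact binomial intervals) against the mean CPM of the cells with any read before thinning (y axis, logarithmic) for the 9 genes (panels) in the 4 populations (colours). Between P2- and P2+ MEPs Fli1 moves on both axes, Etv6 and Elf1 mainly on the level axis, and Spi1 mainly on the share axis.

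Between the compartments more of these genes differed in P2- than in P2+ cells. In P2- CMPs against P2- MEPs 7 of the 9 genes were at least 2-fold higher (Fli1, Spi1, Erg, Etv6, Ets1, Elf1 and Elk3, the last with a log2 ratio of 2.96) and 0 lower, where 22.5% of all tested genes were higher and 9.28% lower. Ets1 passed here with 12 reads of 1 cell against the floor. In P2+ CMPs against P2+ MEPs 3 were at least 2-fold higher (Spi1, Erg and Ets1) and 0 lower, where 17% of all tested genes were higher and 10.3% lower. Erg, with 0 and 41 reads in the MEPs, passed the filter on low counts only through the CMPs, and Ets1 only through the P2+ CMPs. Their place in both counts is therefore a description and supports nothing. Both comparisons share cells with those of the reporter and are not independent of them. For Elf1 the log2 ratio of CMP over MEP was 1.22 (1.13 to 1.31) in P2- cells and -0.18 (-0.24 to -0.13) in P2+ cells. The stem and multipotent markers, which include the gate gene Cd34, moved with this comparison (all 7 had a read in both CMP populations, and Mecom and Procr had none in P2- MEPs, Flt3 and Procr none in P2+ MEPs), with summed levels per cell of 0 to 192, 0 to 797, 64.4 to 1772 and 172 to 1771 CPM, and their part in the ETS levels was not tested.

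The number of the 9 genes read in a cell was counted next. At equal depth a MEP had reads of 0 to 5 of the 9 genes (median 3) when P2- and of 1 to 7 (median 4) when P2+, and a CMP of 2 to 8 (median 6) when P2- and of 3 to 8 (median 6) when P2+. At least 5 of the genes were read in 4 of 56 P2- and 17 of 47 P2+ MEPs, and in 19 of 27 P2- and 37 of 42 P2+ CMPs. The distributions overlapped between neighbouring populations, and the summed CPM of the 9 genes had medians per cell of 151, 406, 581 and 601 CPM.

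**Figure D4:**
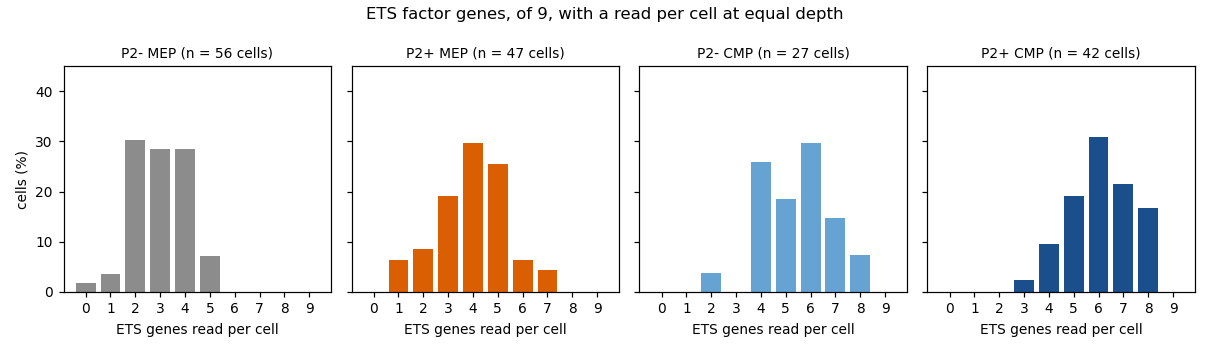
Percent of cells (y axis) with a read of 0 to 9 of the ETS genes (x axis) after thinning to 100000 reads, for the 4 populations (panels). The P2- MEPs end at 5 genes, the P2+ MEPs at 7, and both CMP populations at 8.

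Within a population the genes were at most moderately correlated over cells. The values are Spearman's rho on thinned reads, given as descriptions, with 56, 47, 27 and 42 cells of 1 pool each. Among P2- MEPs the highest rho of a pair was 0.28 (Etv6 and Elf1) and the lowest -0.25 (Etv6 and Gabpa). Among P2+ MEPs they were 0.29 (Fli1 and Etv6) and -0.18 (Fli1 and Ets1, the latter read in 2 cells). Among P2- CMPs they were 0.58 (Spi1 and Elk3) and -0.49 (Erg and Ets2), and Fli1 and Erg had 0.53, with all 12 P2- CMPs that had a read of Erg also having one of Fli1, where 10.2 would have both if the 12 Erg and 23 Fli1 cells fell independently. Among P2+ CMPs they were 0.33 (Fli1 and Elk3) and -0.38 (Etv6 and Ets1, the latter read in 5 cells). Without thinning the rho of Erg and Ets2 was -0.24 and that of Etv6 and Ets1 -0.20, and other pairs stood at the ends, Erg and Elk3 (0.64) and Elk3 and Gabpa (-0.29) among P2- CMPs and Ets2 and Elk3 (-0.43) among P2+ CMPs.

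The ETS family as a whole was compared per length, as pooled CPM per kb of exon. Between genes of 1 population, Elf1 was highest in P2- MEPs at 8.15 CPM per kb (7.77 to 8.55), followed by Gabpa at 7.15 (6.76 to 7.56), and Elf1 at 24.7 (24.03 to 25.4) and Fli1 at 22.7 (21.9 to 23.7) led in P2+ MEPs. In both CMP populations Spi1 led, at 43.8 (41.9 to 45.7) in P2- and 47.5 (46.2 to 48.9) in P2+ cells, followed by Fli1 at 30.4 (29.1 to 31.8) and 26.02 (25.1 to 26.9) CPM per kb. The Etv6 and Elf1 levels of P2- CMPs, 19.9 and 19.01 CPM per kb, had overlapping intervals. The 9 genes made up 55.97%, 78.9%, 78.04% and 83.4% of the summed level per kb of all ETS genes read for (these 9 and 18 more), and the other 18 summed to 24.1, 23.5, 39.5 and 27.4 CPM per kb.

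**Figure D5:**
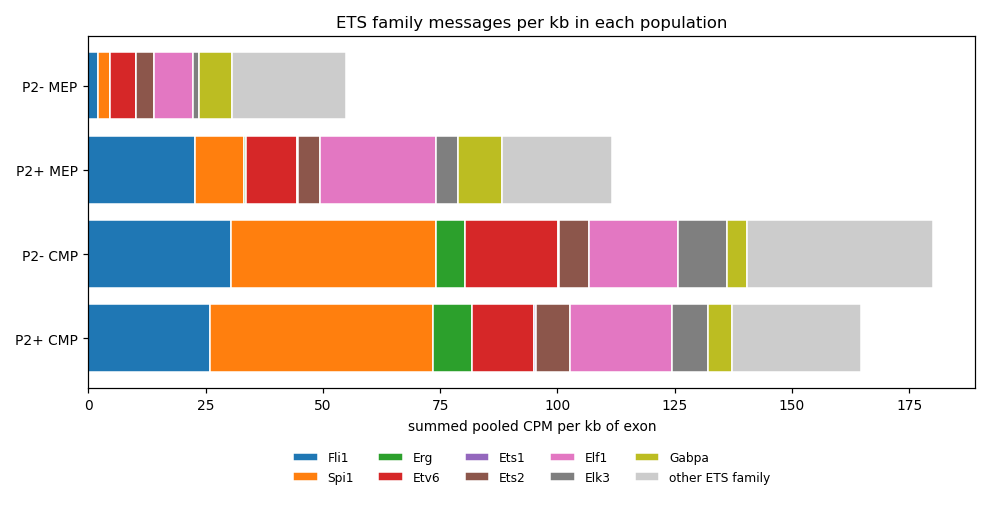
Summed pooled CPM per kb of exon (x axis) of the 9 ETS genes (colours) and of the other 18 genes of the family (grey) in the 4 populations (y axis). The 9 genes sum to 30.7 CPM per kb in P2- MEPs and 88.2 in P2+ MEPs, while the grey part is 24.1 and 23.5, and Ets1 is too low to be seen.

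Of the other 18 family genes 8 were among the tested genes (Elf2, Elf4, Elk1, Elk4, Erf, Etv3, Etv4 and Etv5). In MEPs 1 of these was at least 2-fold higher in P2+ cells and 1 lower, against 15% and 6.46% of all tested genes, with a median log2 ratio of 0.09 over the 8 genes. The higher was Etv4, a relative of Etv5 downstream of growth factor signalling, with 112 reads in 5 P2+ MEPs against 5 reads in 1 P2- MEP, and the lower was Erf, a repressor controlled by ERK, with a log2 ratio of -1.18 (-1.41 to -0.96). In CMPs 0 were higher and 3 lower in P2+ cells, against 9.79% and 9.33% of all tested genes, with a median log2 ratio of -0.61. These were Elk4, a partner of serum response factor, at -1.59 (-1.73 to -1.45), its relative Elk1 at -1.44 (-1.75 to -1.14) and Etv4 at -2.84 (-3.53 to -2.20), the last read in 3 P2- and 2 P2+ CMPs. Etv4 passed the filter on low counts only through the P2+ MEPs and P2- CMPs, which hold 112 and 94 of its reads. Its place in these counts is a description and supports nothing. The 3 genes of highest pooled level among the 8, Elf2, Elf4 and Elk4, had log2 ratios in MEPs of 0.61, 0.00 and -0.14.

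Of the partners and antagonists of ETS factors (15 genes listed, 14 tested), 4 were at least 2-fold higher in P2+ than in P2- MEPs and 0 lower, against 15% and 6.46% of all tested genes. They were Runx1 itself at a log2 ratio of 1.29 (1.16 to 1.41), its partner Cbfb at 1.01, Gata2 at 2.59 (2.50 to 2.69) and Irf8, a partner of PU.1, with 176 reads against 0 (at least 5.83). In CMPs Runx1 was higher at 1.12 (1.03 to 1.21), and Gata1 and Klf1 were lower at -1.24 and -4.25. Gabpb1 and Gabpb2, which encode the partner subunits of GABPA, were at -0.56 and 0.07 in MEPs and at 0.21 and 0.74 in CMPs. Over cells, Fli1 had a rho with Klf1 of -0.18, -0.51, -0.39 and 0.03 in the 4 populations, and Spi1 had a rho of -0.61 with Gata1 in P2+ CMPs and -0.58 in P2- CMPs. In MEPs the rho of Spi1 with Gata1 was -0.02 in P2- and -0.10 in P2+ cells.

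Genes known to be bound and activated by FLI1 in megakaryocytes were read next (8 listed, 7 tested, 6 of the 8 also being markers of that lineage). All 7 tested genes were at least 2-fold higher in P2+ than in P2- MEPs, and 3 of 7 in P2+ than in P2- CMPs, with 0 lower in both, against 15% and 9.79% of all tested genes higher. The 3 in CMPs were Gp1ba, Gp1bb and Pf4. At equal depth they were read in 2, 1 and 2 of 27 P2- and in 8, 5 and 5 of 42 P2+ CMPs. Gp9, Gp1bb and Pf4 had no read in P2- MEPs, so their ratios in MEPs are bounds. Pf4 was read in 1 of 47 P2+ MEPs, so its place in these counts is a description and supports nothing. In CMPs against MEPs 4 were higher and 1 lower among P2- cells (22.5% and 9.28% of all tested genes), and 2 higher and 4 lower among P2+ cells (17% and 10.3%). Among the 4, Gp1bb and Pf4 were read at equal depth in only 1 and 2 of 27 P2- CMPs, against the floor in P2- MEPs. Itga2b, which encodes the CD41 that the sort gated out, had a log2 ratio of 1.62 in MEPs and 0.29 in CMPs, and CMP over MEP of -0.07 in P2- and -1.40 in P2+ cells. Among P2- cells the lower gene was Gp1ba (16 reads in CMPs against 555 in MEPs, log2 ratio -4.38). Gp9 and Gp5, subunits of the von Willebrand factor receptor, were at a bound of at least 9.42 (2122 reads against 0) and at 1.18 in MEPs. For Gp1bb 92.9% of the exon bases overlap other genes, so that its count is uncertain. Over the cells of each population Fli1 had a rho of 0.43, 0.43, -0.14 and 0.16 with Itga2b and of 0.32, 0.18, -0.43 and -0.06 with Gp5. With Gp9, which had no read in P2- MEPs, the rho was 0.31, 0.26 and -0.05 in the other populations.

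Genes activated by PU.1 in myeloid cells (9 listed, 4 tested) differed in whether MEPs had reads of them. Csf3r, the G-CSF receptor, had 0, 1, 578 and 1720 reads, and Tlr4 was at 6.85 CPM in P2+ CMPs with 0 reads elsewhere. Fcgr1 had no read in either MEP population, while Csf2ra was at 4.48, 6.40, 8.13 and 12.4 CPM and was read at equal depth in 13 of 56 P2- and 9 of 47 P2+ MEPs, and in 6 of 27 P2- and 17 of 42 P2+ CMPs. Tlr4 passed the filter on low counts only through the P2+ CMPs and is given by its level alone. In MEPs Csf3r, Fcgr1 and Tlr4 had too few reads for a ratio of P2+ over P2- cells. Only Csf2ra could be compared there, and it stayed within the 2-fold limit. Csf3r correlated with Spi1 over cells at a rho of 0.43 in P2- CMPs and 0.49 in P2+ CMPs. The genes activated by GABP in respiration and mitochondrial transcription (5 listed, 5 tested) had 0 at least 2-fold higher and 0 lower in MEPs, with a median log2 ratio of -0.03, and 0 higher and 1 lower in CMPs (Tfb2m, -1.08). Of all tested genes 15% were higher and 6.46% lower in MEPs, and 9.79% and 9.33% in CMPs. With 5 genes these counts cannot be told apart from those shares.

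Among the genes whose reads were most like those of Fli1 over all 172 cells, of 8027 genes read in 25% or more of the cells, were Tmsb4x (rho 0.61), Meis1 (0.57) and Gmfg (0.56). These rho run over all 4 populations and so include the differences between them. Within populations the rho of Fli1 and Tmsb4x was 0.09, 0.52, 0.12 and 0.05, and that of Fli1 and Meis1 was -0.15, 0.49, 0.22 and 0.16. Among those most like Spi1 were Cd34, by which CMPs were gated (0.69), Coro1a (0.67), Tmem176b (0.67) and Adgrl4 (0.66). Erg was most like Ifitm1 (0.65), Ebi3 (0.64), Lst1 (0.64), Cd93 (0.64) and Lsp1 (0.63). In the CMPs the rho of Spi1 and Cd34 was 0.46 in P2- and 0.49 in P2+ cells, and in the MEPs -0.05 and 0.14.

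FLI1, ERG, ETS1 and ELK3 are also made by endothelial cells, so their markers were read beside these genes. Of the 8 endothelial markers 5, 5, 6 and 7 had a read in the 4 populations. Their summed level per cell had a range of 16.6 to 217.3, 0 to 258.5, 0 to 1184 and 42.7 to 2220 CPM. The medians per cell were 86.5, 80.6, 158 and 373.02 CPM. All 4 tested markers (Tie1, Emcn, Esam and Egfl7) were at least 2-fold higher in CMPs than in MEPs, with a median log2 ratio of 9.55 in P2- and 5.63 in P2+ cells. Of all tested genes 22.5% were higher in these CMPs when P2- and 17% when P2+. Emcn had no read in either MEP population, so its ratios are bounds and it passed the filter on low counts only through the CMPs. In P2+ against P2- MEPs Tie1 and Esam were higher, and in CMPs Emcn was, against 15% and 9.79% of all tested genes. Cdh5 had 0, 2, 9 and 27 reads and Kdr 0, 43, 25 and 65 reads, each in at most 2 cells of a population. Their part in the levels of Fli1, Erg, Ets1 and Elk3 was not tested.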

How the data were processed

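Counts per gene and cell were deposited by the authors without normalization, 49585 mouse and 92 ERCC features. The authors had trimmed the reads (trimmomatic 0.36), aligned them to GRCm38 with ERCC sequences (STAR 2.4.2a) and counted them over GENCODE M12 exons, unstranded (HTSeq 0.6.1p1), and reads that fell on more than 1 gene were assigned to none. The protocol was a modified Smart-Seq2 without molecular identifiers. A second deposited table gives the percent of unmapped reads per cell, as the authors computed it.

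Cells with under 250000 reads, over 25% unmapped reads or over 15% ERCC reads were removed, as the study's methods state. Python 3.11.15, numpy 2.4.6, pandas 2.3.3 and scipy 1.17.1 were used. Reads were summed over each population and divided by its summed mouse reads (CPM). Ratios have exact conditional binomial intervals, levels exact Poisson intervals and shares Clopper-Pearson intervals, all at 95%, and all cover counting error only. Where a population had no read, a floor of 3 reads took its place and the ratio is a bound. Genes with a mean count under 1 were not tested against the 2-fold limit, and no p-value was computed, since a population is 1 sample of pooled livers and its cells are not replicates. Shares of cells and rho used cells thinned to 100000 reads, and levels per kb the merged exon length in GENCODE vM21. The study's DESeq2 test over cells was not used, and wells were not screened for doublets. The ratio was checked on simulated data.

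The 9 genes and all lists were chosen with earlier results of these data known, so their counts are no independent evidence. The text names the 9 genes, other ETS family genes by level or by a 2-fold difference, up to 4 genes of each list by mean count, the 5 genes most like Fli1, Spi1 and Erg (some are not reported here), and the highest and lowest pair per population, and any further gene was named after its values were seen. As alternatives, cells were weighted equally, and the following were tried: DESeq2 poscounts size factors (computed in Python), all deposited cells, leaving out for each gene the highest cell of both populations, a denominator without mitochondrial genes and Rn18s-rs5, leaving out the P2- CMP of conflicting label, fold limits of 1.5 and 3, at least 10 reads in both populations together, thinning to 50000 or 200000 reads or none, minimums of 2 and 5 reads, unthinned CPM for rho, and the mean of the rho within populations.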

Additional observations from a re-analysis of the deposited data

Results flagged for a closer look

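For 3 of the 9 genes the pooled ratio of P2+ over P2- cells had opposite signs in MEPs and CMPs, with both counting intervals off 0. The log2 ratio was 3.44 (MEPs) and -0.22 (CMPs) for Fli1, 0.96 and -0.61 for Etv6, and 1.84 and -0.44 for Elk3. The same held for 2 other family genes, Elk1 at 0.58 and -1.44 and Etv4 at 4.44 and -2.84. Etv4 was read in at most 5 cells of a population and passed the filter on low counts only through the populations where it is high. Between the compartments, the log2 ratio of CMP over MEP was 1.22 in P2- cells and -0.18 in P2+ cells for Elf1, 0.81 and -0.64 for Elk4, and 4.97 and -2.31 for Etv4. With 1 sample per population the differences between these ratios were not tested. Under the alternatives the Fli1 ratio in CMPs came to between -0.22 and -0.03, that of Etv6 to between -0.62 and -0.49, and that of Elk3 to between -0.47 and -0.29.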

How the results depend on the processing

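No paired analysis was possible because each population is 1 sample of pooled livers and cells have no counterpart in another population. All 36 log2 ratios of the 9 genes kept their sign under every alternative that gave a value, and 172 of their alternative values lay within the counting interval (for a bound against the floor, that of the reads counted in the other population). Of the other 42 13 came with equal weight for every cell, 14 with size factors and 15 without the highest cells. Another scaling moved the median of all tested genes by at most 0.08 (log2). With a fold limit of 1.5, 1 gene was lower in P2+ than in P2- CMPs, 1 lower in P2- CMPs than in P2- MEPs, and 5 higher and 1 lower in P2+ CMPs than in P2+ MEPs, where 18.2%, 17.6%, 25.5% and 20% of all tested genes passed this limit in the same order, and the other 68 counts were within 1.5 times those reported. The median number of ETS genes per cell was 5 in P2+ CMPs with thinning to 50000 reads and 5.5 with a minimum of 2 reads, 4 in P2- MEPs without thinning, and with a minimum of 5 reads 1 in P2- MEPs, 3 in P2+ MEPs and 4 in P2+ CMPs. The mean rho within populations was lower than the rho over all cells for each of the 15 genes most like Fli1, Spi1 and Erg. The cause of these changes was not tested. Ets1 had at most 168 reads in a population, and its ratios have the widest counting intervals of those that have one.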

Other observations

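The genes least like Fli1 over all 172 cells, named after their values were seen, included 2 enzymes of haem synthesis, Cpox (rho -0.64) and Alad (-0.60), and the erythroid factor gene Klf1 (-0.62). Within populations the rho of Fli1 and Cpox came to -0.10 (P2-) and -0.49 (P2+) for MEPs, and to -0.50 (P2-) and -0.21 (P2+) for CMPs. Alad was also the gene least like Erg (-0.57), with a rho of -0.58 over the P2- and -0.15 over the P2+ CMPs. Klf1 was the gene least like Spi1 (-0.62), with a rho of 0.12, -0.16, -0.59 and -0.09 within the populations in the same order.

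Runx1, whose proximal promoter the reporter follows, was compared with 3 of the ETS genes, also chosen after their values were seen, over the cells of each population. The rho of Fli1 and Runx1 was -0.11, 0.13, 0.02 and 0.22, that of Spi1 and Runx1 0.16, -0.02, 0.15 and 0.07, and that of Elk3 and Runx1 -0.11, 0.22, 0.09 and 0.01. Of the 39 P2+ CMPs with a read of Fli1 38 also had one of Runx1, as did 41 of all 42 P2+ CMPs. Of the 12 P2- MEPs with a read of Fli1 6 had one of Runx1, as did 34 of all 56 P2- MEPs.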
